A study of Mus musculus with 9 samples.

Results

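The regions described here were open, by the authors' peak calls, in mouse dendritic cells with a knockdown of Pcgf6 and in none of the other cells profiled. The peaks of 4 lists on chromosomes 1 to 19 and X were merged wherever they overlapped, which gave 194733 regions. A region was kept when the list of the knockdown vector HP109 held a peak there and the lists of the vectors LMP8, OE and mi8 held none. The regions were thus chosen by the peak calls themselves, so their presence, strength and counts are descriptions. Of the merged regions, 16532 met this rule (8.49%), and they made up 10.3% of the 161232 regions with an HP109 peak (exact 95% interval 10.1 to 10.4). They are called HP109-alone regions below, and an HP109 region that at least 1 other list also held is called shared.

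The cells were bone marrow derived dendritic cells of C57Bl/6 mice, grown for 9 days with GM-CSF at 20 ng/mL and given retrovirus on day 2. Cells that displayed the vector's human CD8 reporter together with CD11c were sorted, and their open chromatin was mapped by ATAC-seq, which tags accessible DNA with a transposase. HP109 encodes a hairpin RNA against Pcgf6 and LMP8 is its control vector. OE drives overexpression of Pcgf6 and mi8 is the control for OE. Each vector had 2 libraries behind 1 peak list, and 1 input library served as the background for all. The labels do not say whether the 2 libraries came from separate cultures, and the knockdown rests on 1 hairpin. No list has a replicate spread, so no condition was tested against another. A peak in a bulk sample also cannot tell whether more cells opened a site or each cell opened it further.

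Pcgf6 is a Polycomb-group RING finger protein and the defining subunit of PRC1.6, a repressive complex that ubiquitinates histone H2A. PRC1.6 is tethered to DNA by the factors MGA, MAX, E2F6 and L3MBTL2, and is known above all for silencing germline genes in embryonic stem cells. In dendritic cells open chromatin is shaped by PU.1, IRF and AP-1 factors, and inflammatory activation opens enhancers of cytokine and interferon-stimulated genes.

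To show what the regions look like as DNA, the 250 bases before the transcription start are printed for 6 genes whose start lay under or beside an HP109-alone region. Elavl4, Sema4a, Cd5l and Retnla had high −log10 q values among such promoters, and Tlr12 and Elane belong to the gene lists used further on. Capitals mark the bases under the HP109 peak, each sequence is written 5′ to 3′ along the gene, and sequences and starts are from RefSeq on GRCm38.p6, the assembly of mm10.
Elavl4, chr4:110287528-110287777, strand minus: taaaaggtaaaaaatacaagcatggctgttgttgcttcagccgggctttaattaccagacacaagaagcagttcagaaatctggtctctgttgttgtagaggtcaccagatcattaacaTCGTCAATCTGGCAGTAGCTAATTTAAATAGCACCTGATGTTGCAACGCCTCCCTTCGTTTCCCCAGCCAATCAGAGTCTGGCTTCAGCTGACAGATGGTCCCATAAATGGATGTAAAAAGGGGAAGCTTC
Sema4a, chr3:88458885-88459134, strand minus: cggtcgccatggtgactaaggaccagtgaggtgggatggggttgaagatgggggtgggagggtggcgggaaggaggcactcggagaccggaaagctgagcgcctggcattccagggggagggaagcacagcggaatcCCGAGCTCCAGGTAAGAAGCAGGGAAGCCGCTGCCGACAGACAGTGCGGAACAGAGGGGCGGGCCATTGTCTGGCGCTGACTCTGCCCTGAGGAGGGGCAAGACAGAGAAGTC
Cd5l, chr3:87357631-87357880, strand plus: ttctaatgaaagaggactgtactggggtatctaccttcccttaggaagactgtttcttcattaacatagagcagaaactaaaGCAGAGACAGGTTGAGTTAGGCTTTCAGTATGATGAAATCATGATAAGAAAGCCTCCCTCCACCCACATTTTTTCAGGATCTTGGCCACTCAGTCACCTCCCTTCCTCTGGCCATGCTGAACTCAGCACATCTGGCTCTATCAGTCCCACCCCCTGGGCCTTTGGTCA
Retnla, chr16:48842359-48842608, strand plus: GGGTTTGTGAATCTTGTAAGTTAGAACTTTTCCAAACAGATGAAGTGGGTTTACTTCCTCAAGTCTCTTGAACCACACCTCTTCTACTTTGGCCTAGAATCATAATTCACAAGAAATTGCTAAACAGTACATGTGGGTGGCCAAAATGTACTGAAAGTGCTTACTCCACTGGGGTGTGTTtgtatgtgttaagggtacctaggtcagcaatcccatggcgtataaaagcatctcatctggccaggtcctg
Tlr12, chr4:128618620-128618869, strand minus: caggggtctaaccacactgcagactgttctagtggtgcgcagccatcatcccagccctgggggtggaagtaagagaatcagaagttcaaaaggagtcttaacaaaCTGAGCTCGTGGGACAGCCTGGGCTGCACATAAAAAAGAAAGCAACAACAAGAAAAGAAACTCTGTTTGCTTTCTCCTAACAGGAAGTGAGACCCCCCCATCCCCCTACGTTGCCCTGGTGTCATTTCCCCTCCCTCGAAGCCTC
Elane, chr10:79886062-79886311, strand plus: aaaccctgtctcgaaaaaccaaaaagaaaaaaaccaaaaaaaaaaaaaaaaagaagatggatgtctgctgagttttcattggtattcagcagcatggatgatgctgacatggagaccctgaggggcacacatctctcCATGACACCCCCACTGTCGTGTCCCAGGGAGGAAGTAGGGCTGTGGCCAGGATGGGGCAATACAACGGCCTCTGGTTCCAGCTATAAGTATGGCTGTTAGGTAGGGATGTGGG
Cd5l encodes a scavenger protein secreted by macrophages, and its upstream sequence held 0 CpG dinucleotides. Retnla, a secreted protein of alternatively activated macrophages, held 1, Elane, the neutrophil elastase gene, held 3, and Tlr12, an endosomal receptor for microbial profilin, held 4. Sema4a, a semaphorin displayed by dendritic cells, had the highest of the 6 at 13. The PU.1 motif GAGGAAGT lay under the peak of Elane and, as its reverse complement ACTTCCTC, under that of Retnla. Under the Sema4a peak lay a GC box, GGGCGG, and under the Elavl4 peak a CCAAT box, CCAAT. By the rule that chose them, none of the 6 HP109 peaks overlapped a peak of LMP8, OE or mi8.

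Over all promoters, 192 HP109-alone regions overlapped 207 windows of 300 bases (250 before to 50 after a start), belonging to 194 genes. These windows held a median of 6 CpG, against 7 over all 32585 windows, 20 over the 14583 windows at shared HP109 regions, and 12 over the 1010 of those whose shared region had a −log10 q under 10. The GC box was found on either strand in 38.6% of the HP109-alone windows, 35.9% of all windows, 62.0% of shared windows and 46.6% of the weak shared ones. For the E-box CACGTG, the letters read by MGA and MAX, the shares were 5.80%, 7.20%, 10.2% and 7.03%. The E2F6-type motif TTTCGCGC occurred in 0 of the 207 windows, which allows up to 1.77%, beside 0.325% of all windows. The PU.1 motif occurred in 4.83%, against 3.22% of all windows, 3.75% of shared and 4.36% of weak shared ones. The AP-1 motif TGACTCA occurred in 7.25%, against 5.23%, 4.18% and 6.24%. Exact intervals of the HP109-alone shares held the share of all windows for each of these motifs. A match is a description of letters, and its absence says nothing about a factor.

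The HP109-alone regions were weak peaks, which follows in part from the rule. Their −log10 q, the authors' measure of how far a summit stands above the input background, had a median of 4.77 (quartiles 3.53 and 6.42) and ran from 1.33 to 27.96. Shared HP109 regions had a median of 17.7. The summit pileup, recovered as a whole number of reads, had a median of 11 in HP109-alone regions and 24 in shared ones, the fold over background 4.51 against 9.23, and the width 117 against 302 bp. Of the 16532 regions, 7282 reached a −log10 q of 5, 714 reached 10 and 14 reached 20. Together they covered 2.16 Mb. The share of HP109 regions found alone fell with strength, from 47.0% below 3 through 37.1% from 3 to 5, 17.4% from 5 to 10, 3.24% from 10 to 15 and 0.609% from 15 to 20 to 0.0807% from 20 to 30. Of the 49706 regions at 30 or above, 0 were alone. The list of the control vector mi8 gave 54.6%, 39.7%, 17.7%, 2.93% and 0.461% in the 5 lowest bins, so the curve of the knockdown list resembled that of a control list of similar length.

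**Figure D1:**
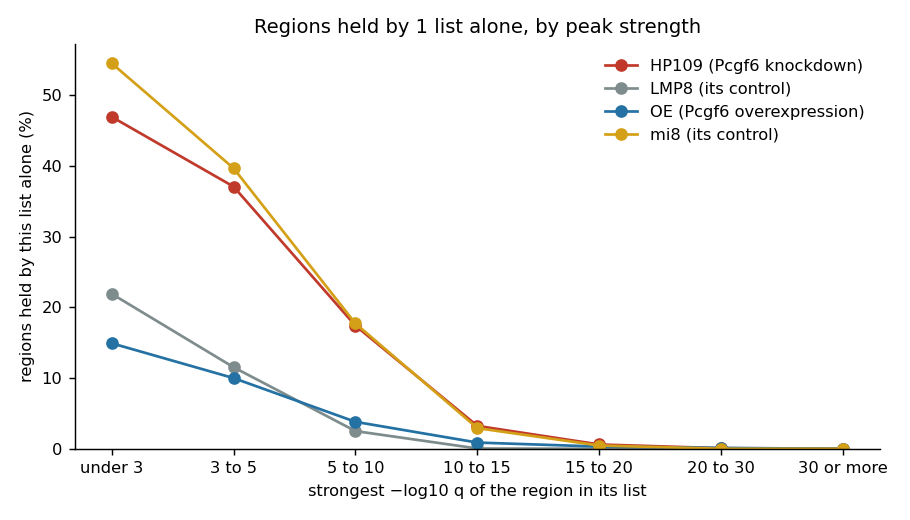
Share of regions held by 1 list alone (y axis, percent of that list's regions) in bins of the region's strongest −log10 q (x axis), 1 line per peak list. The HP109 and mi8 lines run close together from 5 upward and reach 0 at 30 or more.

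Regions held by 1 list numbered 4474 for LMP8 (3.38% of its regions), 2485 for OE (2.38%) and 19266 for mi8 (11.6%). These counts stood in the order of list length: HP109 and mi8 had 170077 and 170946 peaks, LMP8 140716 and OE 111488. When each list was cut to its 111488 strongest peaks, HP109 held 5294 regions alone, LMP8 5860, OE 9818 and mi8 5583. HP109 thus no longer exceeded its control LMP8 in this count. Here and below, alone at equal length means without a peak in the other cut lists, whose weaker peaks were removed. The 5294 HP109 regions had a median −log10 q of 10.8, whereas 714 of the 16532 HP109-alone regions reached 10. Many of the 5294 were therefore shared in the full lists.

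How far an HP109-alone region stood above what another list would have admitted was estimated from the lowest −log10 p in that list. From it the fewest summit reads that would pass were computed, at the region's HP109 background scaled to that list. These lowest summits are computed cutoffs, not called peaks. Read totals were not given, so the ratio of median local background at the peaks of each list stood in for depth. In LMP8, where this ratio to HP109 was 1.008, the median of these lowest summits was 7 reads. The HP109 summit was a median of 1.58 times as high, at least 2 times as high in 3463 regions (20.9%), and under 1.5 times in 5788 (35.01%). Against mi8, with 1.38 times the background of HP109, the HP109 summit was a median of 1.90 times as high after scaling, and 5924 regions (35.8%) reached 2 times. A missing call in LMP8 therefore does not show an absence of reads there. Just inside the threshold of HP109 lay Rps6kc1, a kinase-like gene, and Spns2, the exporter of sphingosine 1-phosphate, each with 6 reads and a −log10 q of 1.33, and Gse1 with 14 reads over a background of 5.73 reads and the same rounded value. The lowest peaks called were at 1.30 in LMP8, 1.31 in OE and 1.34 in mi8.

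The strongest HP109-alone region lay 328 bp beyond the 3′ end of Atic, an enzyme of purine synthesis (chr1:71578649-71580027), with 30 reads at the summit, fold 13.2 and −log10 q 28.0. Next came a region on chromosome 2 with no protein-coding gene within 100 kb (chr2:178801539-178801722, −log10 q 25.3) and a region inside Col5a1, a fibrillar collagen gene (chr2:27916460-27916600, 31 reads, 23.7). Regions inside Pot1a, which protects telomere ends, and Vezt, an adherens junction gene, followed at 21.4 each, then Bcas3 and Mrps30, a mitochondrial ribosomal protein gene, at 21.1 each. Gsdma, a pore-forming gasdermin, and Wdr61 reached 20.3, Nup188, a nuclear pore subunit, 20.2, and Fn1, which encodes the extracellular matrix protein fibronectin, 20.2. The remainder of the leading 20 lay inside Acot11, Macroh2a1 and Ap5z1 or outside spans, nearest to 1700056E22Rik, Nfasc, Sgk1, Fbxo30 and Slc38a9, and on chromosome 5 with no gene within 100 kb. Their values ran from 19.0 to 22.8. Most of these intervals were narrow: all but 5 of the leading 20 measured under 250 bp.

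Position did not enter the rule and could be compared. A gene end here means that the HP109 summit lay within 1000 bp of either end of a protein-coding RefSeq gene. Gene ends held 1147 of the HP109-alone regions (6.94%, exact 95% interval 6.56 to 7.34), against 12.3% of shared HP109 regions and 8.70% of shared regions reweighted to the same −log10 q. The HP109-alone share lay below the reweighted one on 19 of 20 chromosomes. Inside gene spans lay 10080 (61.0%, interval 60.2 to 61.7), against 55.5% of shared and 56.5% of reweighted shared regions, and this share was higher on 20 of 20 chromosomes. Of all merged regions inside a span, 9.26% were HP109-alone. Another 1026 (6.21%) lay over 100 kb from any protein-coding span, and of the 6452 regions outside these spans, 1115 (17.3%) lay in the span of a long non-coding RNA gene. Among 1005 miRNA hairpins, Mir7014 was the single one overlapped (−log10 q 9.96).

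By strand, which was available for 17273 genes, the shortfall was at the 5′ end. Within 1000 bp of a 5′ end lay 592 HP109-alone regions (3.58%, interval 3.30 to 3.88), against 5.04% of reweighted shared regions. Within 1000 bp of a 3′ end lay 377 (2.28%, interval 2.06 to 2.52), against 2.18%. Inside genes of at least 2000 bp, 2413 of 7931 HP109-alone regions (30.4%, interval 29.4 to 31.5) lay in the first 25% of the span from the 5′ end, against 36.0% of reweighted shared regions. In the last 25% lay 22.6% (interval 21.7 to 23.5), against 19.95%. The share in the first 25% was below the reweighted one on 18 chromosomes and above it on 1, with chromosomes of too few such regions left out.

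A share at gene ends below the reweighted one was also found for OE and, by a smaller gap, for mi8, but not for LMP8. LMP8-alone regions sat at gene ends in 12.2% of cases, above their reweighted 8.67%, and 43.4% of those inside genes lay in the first 25%, above 35.5%. OE-alone regions, like those of HP109, were low at gene ends, with 7.65% (interval 6.63 to 8.76) against 9.33%. They were low within 1000 bp of a 5′ end too, with 3.38% (interval 2.71 to 4.17) against 5.39%, and in the first 25%, with 26.0% against 34.97%. They lay inside spans in 54.8% against 56.8%. For mi8-alone regions the gene-end share was 8.31% (interval 7.92 to 8.71) against 8.85%, the share inside spans 54.7% against 58.2%, and the first 25% held 36.4% against 36.1%. A share inside spans above the reweighted value by more than its interval was thus seen for HP109 and not for the other 3 lists. Whether these differences exceed those between libraries of 1 vector was not tested, because 1 list stands for both libraries.

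**Figure D2:**
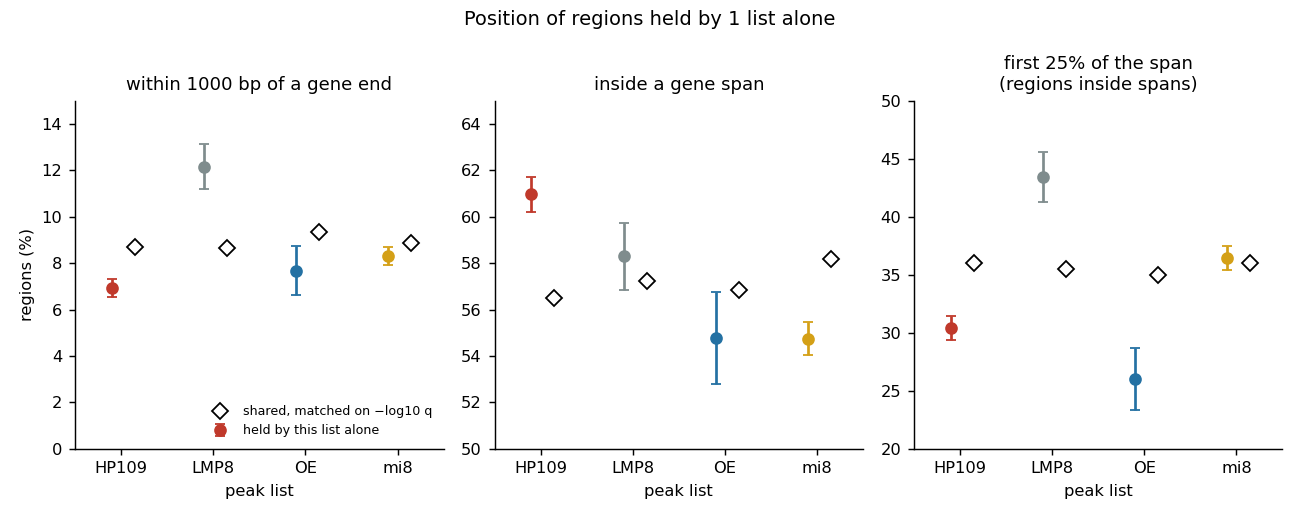
Percent of regions held by 1 list alone (filled points, bars show exact 95% intervals) at gene ends, inside gene spans and, among those inside spans, in the first 25% from the 5′ end, with shared regions of the same list reweighted to the same −log10 q (open diamonds). HP109 lies below its diamond at gene ends (6.94% against 8.70%) and in the first 25% (30.4% against 36.0%), and above it inside spans (61.0% against 56.5%); the vertical axes differ and those of the last 2 panels do not start at 0.

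HP109-alone regions were spread over all chromosomes, from 8.88% of HP109 regions on chromosome 17 to 11.5% on chromosome 9. Their median distance to the nearest peak of another list was 1380 bp, and 14.7% lay within 200 bp of one. That median was 516.5 bp for LMP8-alone regions, 1085 bp for mi8-alone and 1741 bp for OE-alone regions. A small part formed runs, meaning 5 or more consecutive merged regions that were all HP109-alone. There were 30 runs with 217 regions (1.31% of the members), and 177 of these lay inside gene spans. LMP8 had 0 such runs, OE 9 and mi8 9.

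The 2 longest runs lay inside Fn1, and its neighbour Atic held shorter ones. Within the Fn1 span (chr1:71585473-71653280) 56 merged regions had an HP109 peak and 52 of them were HP109-alone. LMP8 had a peak in 3 of the 56, mi8 in 3 and OE in 1. Runs of 25, 17 and 8 regions covered chr1:71590862-71615332, chr1:71616545-71643537 and chr1:71584970-71590244. The 52 summits held 7 to 26 reads (median 11), the median of all HP109-alone regions too. The region over one end of Fn1, chr1:71652531-71654041, was in all 4 lists, with a −log10 q of 79.7 in HP109, 32.1 in LMP8, 16.7 in OE and 36.8 in mi8. Atic, which ends 6.07 kb before Fn1, held 16 HP109-alone regions among 20, in runs of 7, 5 and 7, the last of which passes its 3′ end. Over both genes and 5 kb on either side, HP109 had a peak in 81 of 82 regions, LMP8 in 7, OE in 4 and mi8 in 9. With each list cut to equal length, the Fn1 span had 8 regions, 7 of them alone among the cut lists, and 1 run of 11 joined Atic and Fn1. That run took in regions shared in the full lists, such as chr1:71590495-71590699, with a −log10 q of 23.7 in HP109 and 4.33 in mi8.

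A second neighbourhood on chromosome 8 held Atp2c2, a calcium and manganese pump of the secretory pathway, and Meak7, a lysosomal activator of mTOR signalling. Of 17 regions in Meak7, 14 were HP109-alone and the other 3 were also in LMP8 or mi8, while OE had none. A further region, which overlaps the far end of the Meak7 span but is not counted in it, was in all 4 lists. A run of 16 regions covered chr8:119756738-119773809 across both genes and a run of 7 lay in the end of Atp2c2 next to it, where 13 of 31 regions were HP109-alone. At Cdh23, a cadherin, 23 of 67 regions were HP109-alone, of which 22 lay in the last 25% of the gene, 11 of them in 1 run (chr10:60332709-60340166). Sarnp, an RNA-binding factor of mRNA export, had 23 of 35 regions HP109-alone spread along its span, 6 of them in 1 run. Nod1, a sensor of bacterial peptidoglycan, had 14 of 36, with 9 in the last 25%. Ripor3 had 12 inside its span, 9 of them in the last 25%, but Mthfs, with 10, had 4 in the first and 1 in the last.

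**Figure D3:**
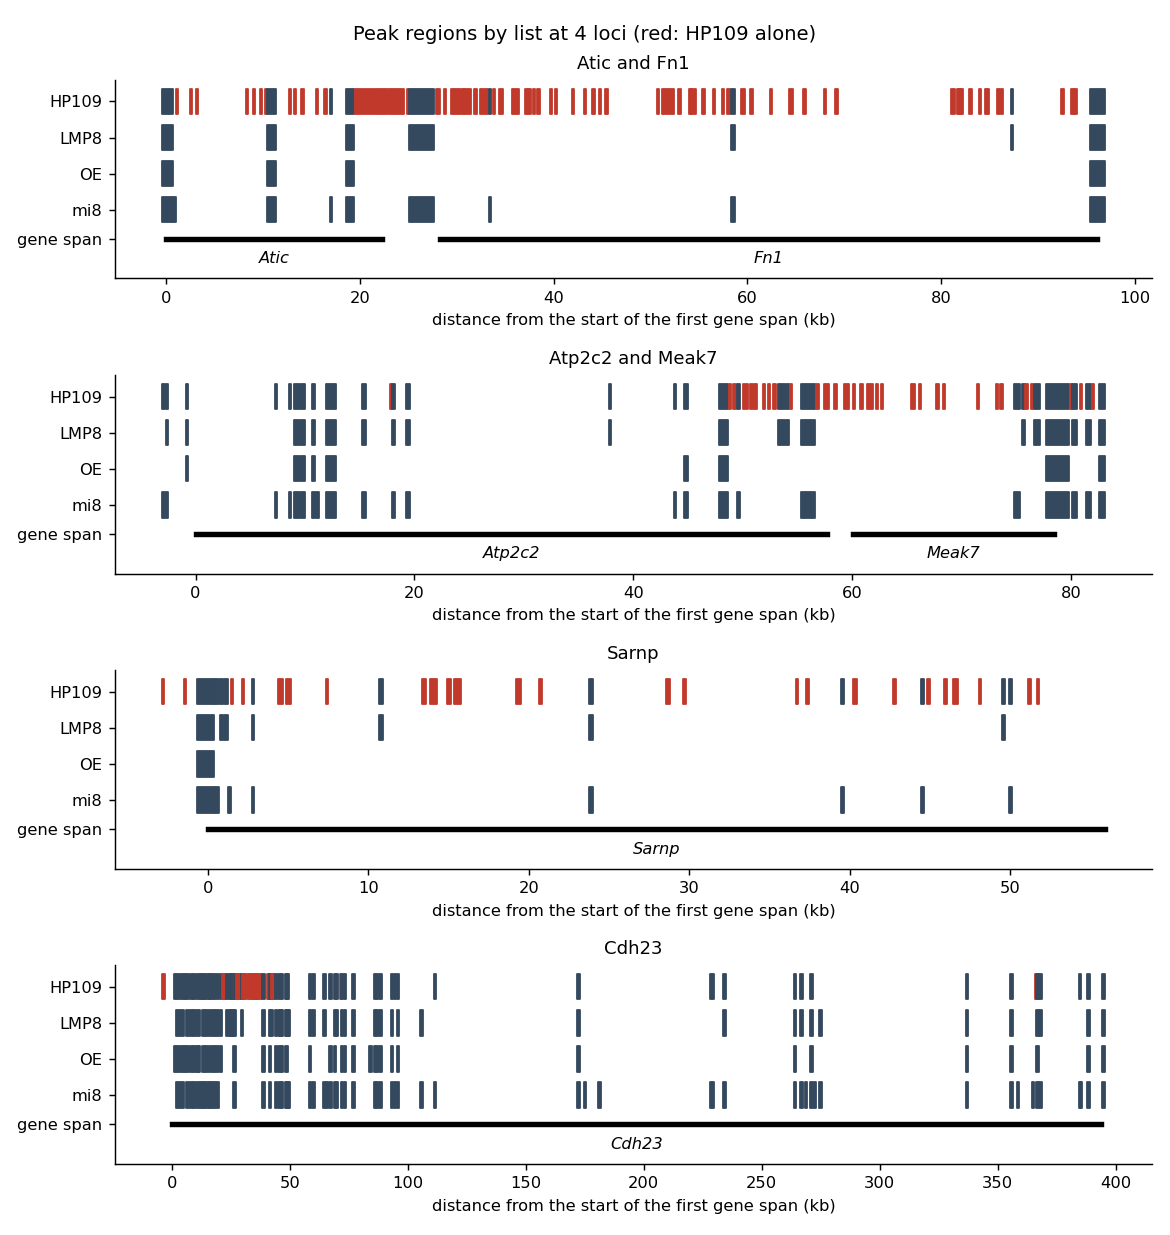
Regions with a peak in each of the 4 lists (rows) along 4 loci, as distance in kb from the start of the first gene span, with HP109-alone regions in red and gene spans as black bars. Red regions fill Atic and Fn1 (72 of 82 regions in the window) and the adjoining ends of Atp2c2 and Meak7 (32 of 60), are spread along Sarnp (25 of 37), and gather near one end of Cdh23 (25 of 96).

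The other runs held 5 to 8 regions each. Plxdc2, a plexin-domain membrane protein, had 8 in a row and Ripor3, Nod1, Mthfs, Adamts7 and Sarnp 6 each, of which 3 lay inside the span for Nod1. Dis3l2, Fam71a, Dcp1b, Denn2b, Tlk2, Tcof1 and Gla, the lysosomal alpha-galactosidase, had runs of 5 in their spans, with 4 of 5 inside for Fam71a. Runs of 5 outside spans lay near Twist2 and Hdac4, Foxd2 and Trabd2b, Gdf15, Macc1 and Malt1. The run near Plekhg1 and Iyd differed from the rest: its median summit held 50 reads, against 9 to 16 in the other runs, with a −log10 q of at most 8.52. With each list cut to equal length there were 2 runs, that at Atic and Fn1 and 1 of 6 regions at Tcof1.

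Across genes, 5274 of 21627 had an HP109-alone region inside, 3153 of them a single one, and 52 genes had 10 or more. mi8-alone regions reached 10 in 43 genes, OE-alone regions in 3 and LMP8-alone regions in 1. After Fn1 the highest numbers were 38 in Plxdc2, 23 each in Cdh23 and Sarnp, 19 in Pde4d, a cyclic AMP phosphodiesterase, 18 in Cd36, a scavenger receptor for oxidised lipids, 16 each in Atic, Chst11 and Tbxas1, the thromboxane synthase, and 15 in Slc7a11, the cystine transporter, and in Zeb2. In long genes with many regions this was a small share: Pde4d had 181 regions, of which 22 were mi8-alone. At least 10 regions and no fewer HP109-alone than others were found in 16 genes, against 3 for mi8, 5 for OE and 0 for LMP8. By this share Fn1 (92.9%), Meak7 (82.4%), Atic (80%) and Sarnp (65.7%) were followed by Nup107 (7 of 11), Gtf3c1 (8 of 13), Gla (7 of 12), Acpp (14 of 26), Cecr2 (7 of 13) and Add2 (5 of 10). Acpp, a prostatic acid phosphatase, differed from these in its 5 OE-alone regions. With each list cut to equal length it had 0 HP109-alone regions of 12, with an HP109 peak in 6 and an OE peak in 12. Sarnp then had 3 of 6, Atic 3 of 5 and Meak7 its single region. At that length 1 gene held at least 10 regions with no fewer HP109-alone than others.

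**Figure D4:**
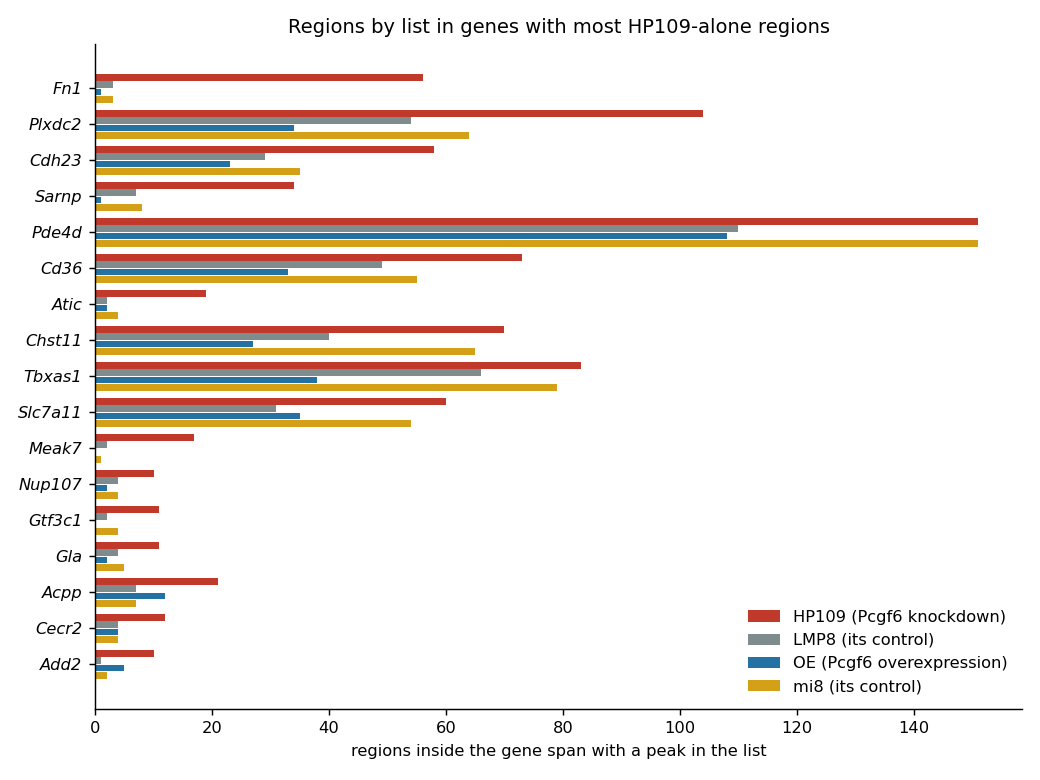
Number of merged regions inside a gene span that carried a peak in each of the 4 lists (bars, from 0), for the genes with the most HP109-alone regions or the highest share of them. Fn1 stands at 56, 3, 1 and 3 for HP109, LMP8, OE and mi8, whereas Pde4d has 151 in both HP109 and mi8.

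At gene ends, 1207 of 21627 genes (5.58%) had an HP109-alone region. After Atic the strongest was Igf2bp3, an mRNA-binding protein of fetal tissue, 4 bp from its transcription start (chr6:49215392-49215544, 23 reads, −log10 q 18.9). Wfdc21 reached 16.02, Mybphl 15.02 and Calb1, a calcium-buffering protein, 14.7. Cd5l (13.8), Retnla (11.9) and Vcam1, an adhesion receptor for leukocytes (11.9), are genes with immune roles. So is Marchf8, a ubiquitin ligase that clears MHC class II and CD86 from the surface, with 13.2 at its 3′ end. Kdm6b, which removes the Polycomb mark H3K27me3, had 11.9 at a point 73 bp from its span. The others of the leading 20 were Spindoc, Sorcs2, Zbtb10, Cpb1, Shisa4, Selenon, Sec24b, Snap23, Jade1 and Gins4, between 11.9 and 14.1. In 146 genes (0.675%) the span and 1000 bp around it held HP109 peaks and no peak of another list, 135 of them with 1 region. Ppp1r14c, an inhibitor of a protein phosphatase, had 3 regions with at most 65 reads and a −log10 q of at most 14.5. Reads alone do not give strength, as the region at Atic had 30 reads and 28.0. The Ppp1r14c span (chr10:3365974-3464978) lies before the run near Plekhg1 and Iyd (chr10:3645224-3674612), with a median of 50 reads and at most 8.52. Tktl1, a transketolase-like gene, had 3 regions of at most 4.77.

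The 16 gene lists were counted as HP109-alone regions over all merged regions whose nearest protein-coding gene within 100 kb was in the list. Over all genes this share was 8.54%. The lists differed in peak strength and these shares come from the contrast that chose the regions, so they describe and support nothing.

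Stroma and matrix genes had 97 of 546 regions HP109-alone (17.8%), and Fn1 alone supplied 55. Without Fn1 the list had 42 of 471 (8.92%), near the share of all genes, with Col5a1 at 8 of 20, the leptin receptor Lepr at 5 of 22 and the vascular receptor Kdr at 4 of 36. End regions were found at Fn1, Pdgfra (−log10 q 6.42) and Spp1 (3.89). Macrophage markers had 72 of 552 (13.04%), of which Cd36 supplied 20 of 98 and the mannose receptor Mrc1 14 of 59. Without these 2 genes the list had 38 of 395 (9.62%). With each list cut to equal length, the Mrc1 span had 1 of 21 regions HP109-alone and that of Cd36 6 of 48. Lyz2, the myeloid lysozyme, had 5 of 13, and Cd5l, Apoe (7.86), Ccr2 (4.27), Gpnmb (4.19) and Adgre1, which encodes F4/80 (3.81), had an end region. The part of other cell types in these counts was not tested.

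Dendritic cell lineage factors had 101 of 1142 (8.84%), close to all genes. Itgax, which encodes the CD11c used in the sort, had 8 of 18 HP109-alone, including an end region with 15 reads (7.16). HP109 had a peak in 17 of its 18 regions, LMP8 in 10, OE in 5 and mi8 in 8. With each list cut to equal length it had 2 of 8. Zeb2, with 17 of 163, also had 30 mi8-alone regions, and Runx1 and Sirpa had 8 of 96 and 8 of 43. Csf2rb2 (6.63), Cebpa (5.11), Ahr (2.38), Cd209a (2.38) and Irf4 (2.21) had an end region of low strength.

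The 4 lists of dendritic cell activation had shares a little under that of all genes. NF-kB and Toll-like receptor genes had 42 of 669 (6.28%), costimulation and maturation genes 32 of 512 (6.25%), cytokines and chemokines 31 of 502 (6.18%) and antigen presentation 18 of 307 (5.86%). Exact 95% intervals of the last 3 held the 8.54% of all genes. With each list cut to equal length, cytokines (4.47%) and costimulation (3.88%) lay above all genes (3.81%), and over regions inside the span or within 1000 bp, NF-kB genes had 8.90% against 8.90%, so no direction is given for these lists. Among them Tlr12 had 3 of 7, 2 of these at its end (6.96 and 6.20), Irak3, an inhibitor of Toll-like receptor signalling, 5 of 37, and the chemokine gene Ccl9 6 of 17. Cd44 had 6 of 113 beside 26 mi8-alone regions, Il15 5 of 26 and Marchf1 7 of 81. Nfkbia (2.74), Tlr13 (2.27), Slamf1 (6.63), Cd86 (4.77), Erap1 (3.06), Ccl6 (4.77 and 3.89) and a region shared by Tap1 and Psmb9 (5.13) were end regions. Interferon-stimulated genes had 6 of 320 (1.88%), the lowest of the 16 lists, in Ifnar1 (3), Irf1, Oas3 and Samd9l, and 0 at a gene end. mi8 alone held 51 of these 320. Glycolysis and HIF genes had 27 of 624 (4.33%), led by Pfkp with 8 of 52, beside 62 OE-alone regions.

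Over all merged regions, a mixed list that includes the complex Pcgf6 belongs to, and its targets in other cells, stood near the background. PRC1.6 genes and Pcgf paralogs, listed together with other Polycomb-related genes, had 43 of 485 (8.87%). PRC1.6 genes were not counted apart from the others. Jarid2, a PRC2 subunit, had 9 of 46, and Kdm2b and Pcgf5, both of variant PRC1 complexes, had 4 of 23 and 4 of 32. End regions lay at Kdm6b, Cbx1 (4.77), Jarid2 (3.57), Kdm2b (3.38) and Pcgf5 (3.31). Pcgf6 itself had 1 HP109-alone region of 5, with 8 reads and a −log10 q of 3.06; a hairpin acts on the transcript, so peaks do not check the knockdown. Germline genes had 25 of 238 (10.5%) and 0 at a gene end, with the cohesin gene Stag3 at 3 of 4, Hormad2 at 3 of 27 and Ddx4 at 2 of 8. Developmental Polycomb targets had 29 of 262 (11.1%), beside 40 mi8-alone regions. With each list cut to equal length they had 14 of 148 (9.46%, interval 5.27 to 15.4), against 3.81% of all genes. Inside the span or within 1000 bp they had 13.9% against 8.90%. Over HP109 regions with a −log10 q under 10 they had 25.2% against 26.0%. Hoxc10 (6.63), Hoxc5 (5.38), Hoxb5 (4.74), Dlx2 (4.02) and Gata6 (3.38) had an end region.

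Markers of other lineages and the remaining list spanned the background. Granulocyte and mast cell markers had 17 of 173 (9.83%), with Elane (5.47) and Mmp8 (3.06) at an end. Erythroid and megakaryocyte markers had 14 of 169 (8.28%), with Hba-a1 (3.07) and Gfi1b (2.93) among those at an end. Lymphoid and plasmacytoid markers had 17 of 244 (6.97%), with Cd79b (4.77), Cd3d (3.78) and Eomes (3.06). Ubiquitous promoters had 17 of 241 (7.05%), with Actb (4.77), Ywhaz (4.19) and Actg1 (4.07). Hk3 (4.43) and Pfkp (2.27) were the end genes of the glycolysis list.

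Because weak regions are more often alone, the lists were also counted over HP109 regions with a −log10 q under 10, where 26.0% were HP109-alone over all genes. Interferon-stimulated genes had 6 of 78 (7.69%, interval 2.88 to 15.99) and glycolysis genes 27 of 157 (17.2%, interval 11.6 to 24.0). Stroma genes had 86 of 206 (41.7%) and macrophage markers 68 of 172 (39.5%). These lists were not recounted here without Fn1, or without Cd36 and Mrc1. The lists of NF-kB and Toll-like receptor signalling (22.5%), costimulation (22.1%), cytokines (24.8%) and antigen presentation (23.1%) lay closer to all genes on this scale, and intervals of each held 26.0%.

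**Figure D5:**
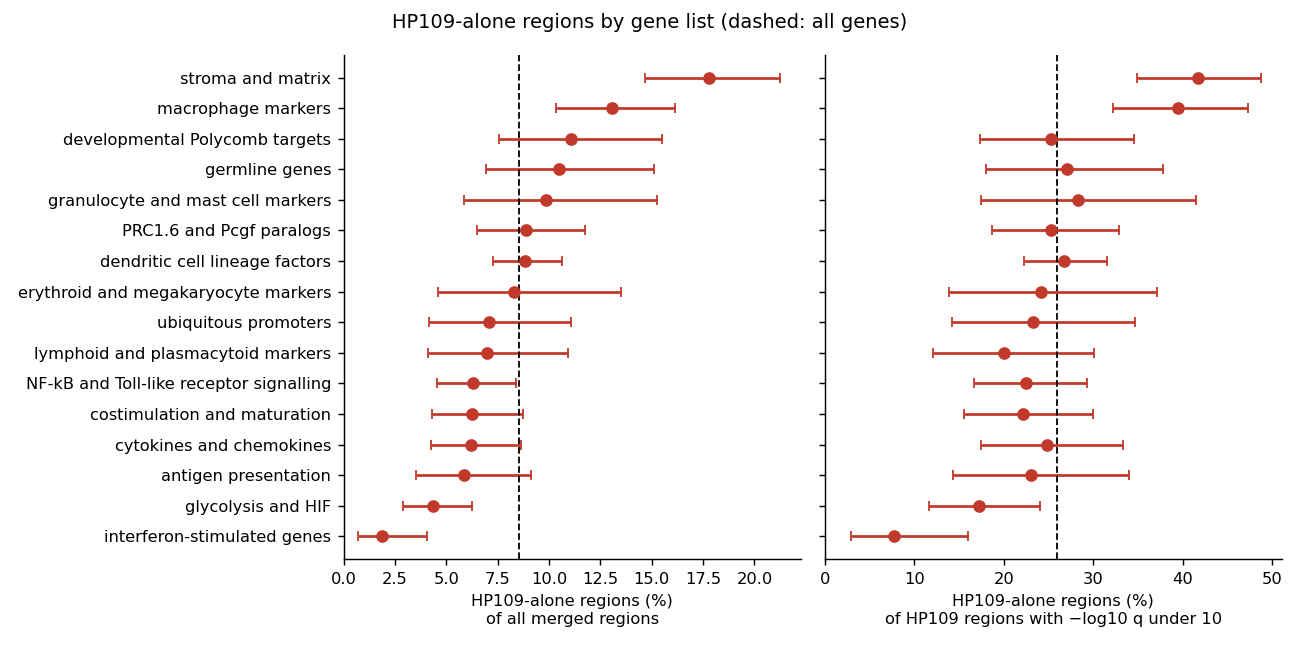
HP109-alone regions as a percent of all merged regions (left) and of HP109 regions with a −log10 q under 10 (right) for each gene list, with exact 95% intervals that cover counting error alone; dashed lines mark all genes, 8.54% and 26.0%. Stroma and macrophage lists lie to the right of both lines, and interferon-stimulated genes, 1.88% and 7.69%, to the left of both. Fn1 alone supplied 55 of the 97 stroma regions in the left panel.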

How the data were processed

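ATAC-seq was run on dendritic cells with 4 vectors, 2 libraries each, and 1 input. Per the submitters' processing notes, BWA, Picard and MACS2 were used on build mm10. Versions, thresholds, read shifting, pooling of libraries and read totals: not given in the sources used here. For each vector the authors deposited 1 narrowPeak list. Its score, as deposited, is 10 times the −log10 q. Its fold, a ratio deposited by the authors, sets summit pileup over local background, and the deposited −log10 p and −log10 q place the summit above that background. The deposited summit offset is a position in bp.

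From these, peaks were merged at an overlap of 1 bp (Python 3.11.15, pandas 2.3.3, numpy 2.4.6). Pileups were recovered as whole reads from fold and −log10 p (within 0.001 for 100% of peaks in each list); 28 HP109 peaks on other chromosomes were left out. Positions use RefSeq gene spans of GRCm38.p6 without exons; of 542 gene list entries 539 matched. Shared regions were reweighted to the members' −log10 q in bins of width 1 up to 20. Intervals are exact (Clopper-Pearson, SciPy 1.17.1) and cover counting error alone. The merging, the pileup recovery and the reweighting were tested on simulated data; the gene positions and counts of runs were not. The members and gene lists were chosen with earlier results of these data known, and position by strand and along genes, and the counts below a −log10 q of 10, were added after seeing the data. Named are the 20 strongest regions and gene-end regions, the 10 genes with most HP109-alone regions and with the highest share, list genes with an end region or the most regions, genes with 3 or more peaks in HP109 and none elsewhere, and the 3 weakest regions. Some genes these rules name are not reported here. Alternatives varied the −log10 q minimum, list length, merging distance, overlap, isolation and gene-end window.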

Additional observations from a re-analysis of the deposited data

How the results depend on the processing

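No paired analysis was possible because 1 peak list stands for both libraries of each vector, and for the same reason the fits that leave out a replicate were not run. The share at gene ends stayed below, and the share inside spans above, the reweighted shared regions under 10 of 10 and 8 of 8 alternatives.

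With a −log10 q of at least 5 there were 7282 HP109-alone regions (5.29% of HP109 regions), 846 LMP8-alone regions, 448 genes with an end region, 2 runs, and 5.70% at gene ends (reweighted 7.73%). At 10 or more the values were 714, 0.715%, 8, 38, 0 runs and 4.90% (7.89%), the first 25% held 26.8%, and the reweighted share inside spans was 55.6%. A minimum of 3 in all lists gave 10.6% alone and a reweighted 8.09%. With equal numbers of peaks there were 5294 regions alone among the cut lists (4.93%), many of them shared in the full lists. These gave 351 genes, 2 runs, 6.16% at ends (8.03%) and a reweighted 55.4% inside. Merging peaks within 200 bp gave 9.42%, 19 runs, 5.55% at ends (6.60%) and 55.6%. Requiring no other peak within 1000 bp gave 9342 regions (6.06%), 1665 for LMP8, 405 genes, 3.92% at ends and 59.6% inside. Counting peaks covered for less than 50% of their length gave 11.1%, 46 runs, 7.79% at ends (11.2%) and 57.3%. Gene-end windows of 500 and 2500 bp gave 548 and 2667 genes, 3.08% (4.01%) and 15.8% (18.4%).

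Of 16 gene lists, 7 lay above all genes, 7 with equal numbers of peaks, 8 with regions inside the span or within 1000 bp, and 5 below a −log10 q of 10. These were not the same lists. With equal numbers of peaks germline genes (2.96%), granulocyte markers (0.847%) and dendritic lineage factors (2.87%) moved below all genes (3.81%), and cytokines (4.47%), costimulation (3.88%) and lymphoid markers (6.21%) above. Stroma and macrophage genes lay above, and interferon-stimulated and glycolysis genes below, under all 4 counts. Fn1 supplied 55 of the 97 stroma regions in the first count. Its span supplied 7 of 23 with equal numbers of peaks, and 52 of 74 inside the span or within 1000 bp. Those 74 also include an Fn1 region outside the span, with its summit 134 bp away. Stroma without Fn1 (8.92%) and macrophage markers without Cd36 and Mrc1 (9.62%) were counted over all merged regions alone, beside 8.54%. HP109-alone summits held a median of 11 reads. Scaled by background, this median was 11.1 reads for LMP8, 15.2 for OE and 15.2 for mi8. The fewest reads computed to pass there had medians of 7, 8 and 8. How far depth shaped these counts was not tested.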
